A study of Mus musculus with 12 samples.

Results

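The EMT transcription factors are a small group of DNA-binding proteins that drive epithelial-mesenchymal transition (EMT), in which epithelial cells loosen their junctions and take on a migratory, mesenchymal form. All 8 genes of the group were looked up by symbol among the 39017 genes of the deposited count tables, and all 8 were found: Snai1, Snai2, Zeb1, Zeb2, Twist1, Twist2, Prrx1 and Foxc2. RNA was measured in 12 libraries of 4T1, a mouse mammary carcinoma line used as a model of triple-negative breast cancer. The groups were 3 tumors and 3 cultures with the genotype label POGZ KO, and 3 tumors and 3 cultures titled VC with the genotype label POGZ WT, here called KO and VC. Cultures grew in DMEM with 10% FBS to 75% confluency, with no other treatment named. Tumors came from 50000 cells placed in the mammary fat pad (MFP-4) of BalbC mice 8 weeks old, grew for 28 days and were flash frozen. POGZ, a zinc finger protein, is a partner of the heterochromatin protein HP1, and the title of the series links its loss to TGF-beta signaling and metastasis. The labels do not say whether the KO cells are 1 clone, how the gene was disrupted, or whether the 3 libraries of a culture group came from separate cultures, so p-values for cultures measure the spread between these libraries only.

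SNAI1 and SNAI2 (Snail and Slug) and ZEB1 and ZEB2 are zinc finger repressors that bind E-box motifs in the promoters of epithelial genes such as Cdh1, which encodes E-cadherin. TWIST1 and TWIST2 are basic helix-loop-helix proteins that pair with E proteins, PRRX1 is a homeodomain protein of embryonic mesenchyme, and FOXC2 is a forkhead protein of mesenchyme and lymphatic vessels. Many of these genes can be induced by TGF-beta in epithelial cells, but in a tumor they are also expressed by host cells: Prrx1, Twist2 and Snai2 are known from fibroblasts, and Zeb2 from macrophages and other leukocytes.

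The 8 genes lie on 6 chromosomes of GRCm38, the assembly that mm10 names, and all are protein-coding. Snai1 (ENSMUSG00000042821) and Zeb2 (ENSMUSG00000026872) are both on chromosome 2, at 167538195 to 167542814 on the plus strand and at 44983632 to 45117395 on the minus strand. Twist2 (ENSMUSG00000007805) and Prrx1 (ENSMUSG00000026586) are both on chromosome 1, at 91801461 to 91848028 on the plus strand and at 163245119 to 163313710 on the minus strand. Snai2 (ENSMUSG00000022676) is on chromosome 16 at 14705852 to 14709385, Twist1 (ENSMUSG00000035799) on chromosome 12 at 33957671 to 33959829, Zeb1 (ENSMUSG00000024238) on chromosome 18 at 5591860 to 5775467 and Foxc2 (ENSMUSG00000046714) on chromosome 8 at 121116171 to 121118895, each on the plus strand. Exons of Zeb2 share 653 bases with the antisense gene Zeb2os, those of Zeb1 share 198 bases with Gm10125 on the other strand, and those of Twist2 share 1477 bases with the antisense gene Gm29100. Whether reads were counted by strand is not given in the sources used here, so reads of these partners may have been counted with the member or lost from it. Zeb2os had 26 to 231 counts in tumors and 6 to 13 in cultures, where Zeb2 had 1001 to 4607 and 331 to 652.

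Total counts ran from 12128993 to 13043831 in KO tumors, 4712001 to 8338828 in VC tumors, 14724518 to 21863223 in KO cultures and 17714560 to 18643217 in VC cultures. Pogz itself was not lower in libraries labelled as knockout. In cultures it was higher in KO than in VC, by 0.45 ± 0.04 on the log2 scale (SE, edgeR, adjusted p = 3.66e-06). The difference in tumors was 0.11 ± 0.20 (edgeR, adjusted p = 0.944). It stood at 107 ± 23.4 CPM (counts scaled by the total of the library, mean ± SD, n = 3) in KO tumors and 99.3 ± 11.9 CPM in VC tumors, and at 68.3 ± 0.43 CPM in KO cultures and 50.3 ± 2.03 CPM in VC cultures. "KO" therefore stands below for the library labelled KO. As markers of a carcinoma line, Cdh1, encoding E-cadherin, averaged 996 ± 19.6 CPM in KO cultures and 1147 ± 80.5 CPM in VC cultures while Cdh2, encoding N-cadherin, had no count in any of the 6 cultures.

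Promoter sequences from RefSeq (GRCm38.p6) matched 5 of the 8 genes, namely Snai1, Zeb2, Twist1, Twist2 and Prrx1. Those of Twist1 and Zeb2 are shown because these genes differed most clearly between KO and VC cultures, that of Prrx1 because it differed most between tumors and cultures, and that of Snai1 for its E-box. The promoter of Epcam, an epithelial adhesion gene, is shown as an example of the E-boxes that SNAI and ZEB proteins bind. Each line runs 5′ to 3′ on the strand of its gene over the 250 bases before the start site, except that Prrx1 stops after 190 bases where an annotated exon begins. Capitals mark CACCTG, or CAGGTG where it is read from the other strand, which is a form of the E-box CANNTG. No other motif is marked.
Snai1 (chr2:167537945-167538194, plus strand): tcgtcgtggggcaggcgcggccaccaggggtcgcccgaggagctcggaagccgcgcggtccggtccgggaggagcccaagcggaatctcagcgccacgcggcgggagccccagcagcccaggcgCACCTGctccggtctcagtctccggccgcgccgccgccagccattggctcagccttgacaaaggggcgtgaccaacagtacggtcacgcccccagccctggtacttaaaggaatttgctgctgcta
Twist1 (chr12:33957421-33957670, plus strand): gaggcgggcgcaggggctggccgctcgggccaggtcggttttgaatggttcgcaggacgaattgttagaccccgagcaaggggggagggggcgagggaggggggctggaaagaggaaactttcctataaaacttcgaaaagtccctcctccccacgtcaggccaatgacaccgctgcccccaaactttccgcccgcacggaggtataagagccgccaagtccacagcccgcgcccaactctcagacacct
Zeb2 (chr2:45117443-45117692, minus strand): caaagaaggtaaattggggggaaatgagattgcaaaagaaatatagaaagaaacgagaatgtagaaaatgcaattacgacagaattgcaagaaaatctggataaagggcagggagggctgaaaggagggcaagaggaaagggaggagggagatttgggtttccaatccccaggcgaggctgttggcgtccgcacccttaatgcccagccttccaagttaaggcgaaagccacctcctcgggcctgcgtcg
Prrx1 (chr1:163313711-163313900, minus strand): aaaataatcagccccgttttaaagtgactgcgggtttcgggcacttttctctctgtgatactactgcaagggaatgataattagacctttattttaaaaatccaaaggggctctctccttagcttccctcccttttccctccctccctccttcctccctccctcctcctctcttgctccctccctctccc
Epcam (chr17:87635729-87635978, plus strand): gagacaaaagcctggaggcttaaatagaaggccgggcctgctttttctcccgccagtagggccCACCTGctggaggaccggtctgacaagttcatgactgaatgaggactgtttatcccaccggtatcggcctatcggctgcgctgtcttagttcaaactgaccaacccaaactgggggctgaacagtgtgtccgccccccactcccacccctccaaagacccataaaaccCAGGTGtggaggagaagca
Among the 5 members with a promoter, CACCTG on either strand was found in Snai1 alone, with its first base at -126 from the start site. Of all 32851 promoters of the same length, 17.2% held it at least once and 2.06% at least 2 times. Of 30 epithelial genes listed as repressed by SNAI and ZEB proteins, 18 had a promoter and 11 of them (61.1%) held the motif, among them Epcam, with matches at -187 and -19. That list was drawn up from genes known for such sites, so its share is a description of the list.

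In culture, the members split into 2 sets of 4. Snai1, Zeb2, Twist1 and Foxc2 had 74 to 652 counts in each culture library, while Snai2, Zeb1, Twist2 and Prrx1 had at most 10 and did not pass the filter on low counts. Of the 4 members tested, 3 were called in the comparison of KO with VC cultures (edgeR quasi-likelihood test, Benjamini-Hochberg adjusted p under 0.05), with Twist1 and Foxc2 lower and Zeb2 higher. The background was high: 47.9% of the 15705 genes tested were called, 23% higher and 24.9% lower, so a count of 3 in 4 does not set the members apart.

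Twist1 had 6.20, 5.03 and 6.04 CPM in KO cultures, against 16.5, 15.0 and 15.6 CPM in VC cultures. Every KO culture was well below every VC culture. The log2 fold change was -1.43 ± 0.10 (SE, edgeR, adjusted p = 2.34e-07), a level 0.371 times that of VC cultures. Foxc2 had 5.39, 6.995 and 5.99 CPM in KO cultures, against 10.9, 10.5 and 11.2 CPM in VC cultures. The groups did not overlap, and the log2 fold change was -0.82 ± 0.11 (edgeR, adjusted p = 4.71e-05). When all 12 libraries shared 1 estimate of the spread, Foxc2 was no longer called (-0.83 ± 0.24, edgeR, adjusted p = 0.0549).

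Zeb2 moved the other way, with 31.9, 31.4 and 29.8 CPM in KO cultures, against 18.7, 18.2 and 18.7 CPM in VC cultures. All KO cultures were above all VC cultures, and the log2 fold change was 0.75 ± 0.06 (edgeR, adjusted p = 8.20e-07). Genes of chromosome 2 as a whole were shifted in KO cultures, with a median log2 fold change of 0.25. With the median of each chromosome taken out, Zeb2 remained higher at 0.51 ± 0.06 (edgeR, adjusted p = 3.30e-05). Snai1, a direct repressor of Cdh1, had 5.56, 6.25 and 5.99 CPM in KO cultures, against 6.32, 6.17 and 6.54 CPM in VC cultures. These groups overlapped, and the log2 fold change of -0.09 ± 0.11 was not called (edgeR, adjusted p = 0.532). Since Snai1 also lies on chromosome 2, taking out the chromosome medians moved it to -0.33 ± 0.11 (edgeR, adjusted p = 0.0279), lower in KO cultures relative to its chromosome.

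The other 4 members were close to the floor in culture, where 3 counts in a library stand for 0.137 to 0.204 CPM. Zeb1 had 5, 2 and 2 counts in KO cultures, against 9, 10 and 7 counts in VC cultures. The groups did not overlap, which was also true of 55.7% of all genes tested. Pooled, 9 counts against 26 gave a ratio of 0.353 with a 95% interval of 0.145 to 0.777 that covers counting error only. Zeb1 could be tested in 2 alternative fits. It was called lower with no filter (edgeR, adjusted p = 0.0373) but not with all 12 libraries in 1 fit (edgeR, adjusted p = 0.0898). Prrx1 had 3 counts in each KO culture, against 4, 2 and 2 counts in VC cultures. Snai2 and Twist2 had no count in any KO culture and 1 count each in VC culture 3. A difference between KO and VC cultures in Prrx1, Snai2 or Twist2 was not detectable at this depth. An exact permutation test of 3 libraries against 3 cannot give a two-sided p below 0.1, the value it gave for Twist1, Foxc2, Zeb2 and Zeb1 in culture.

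**Figure D1:**
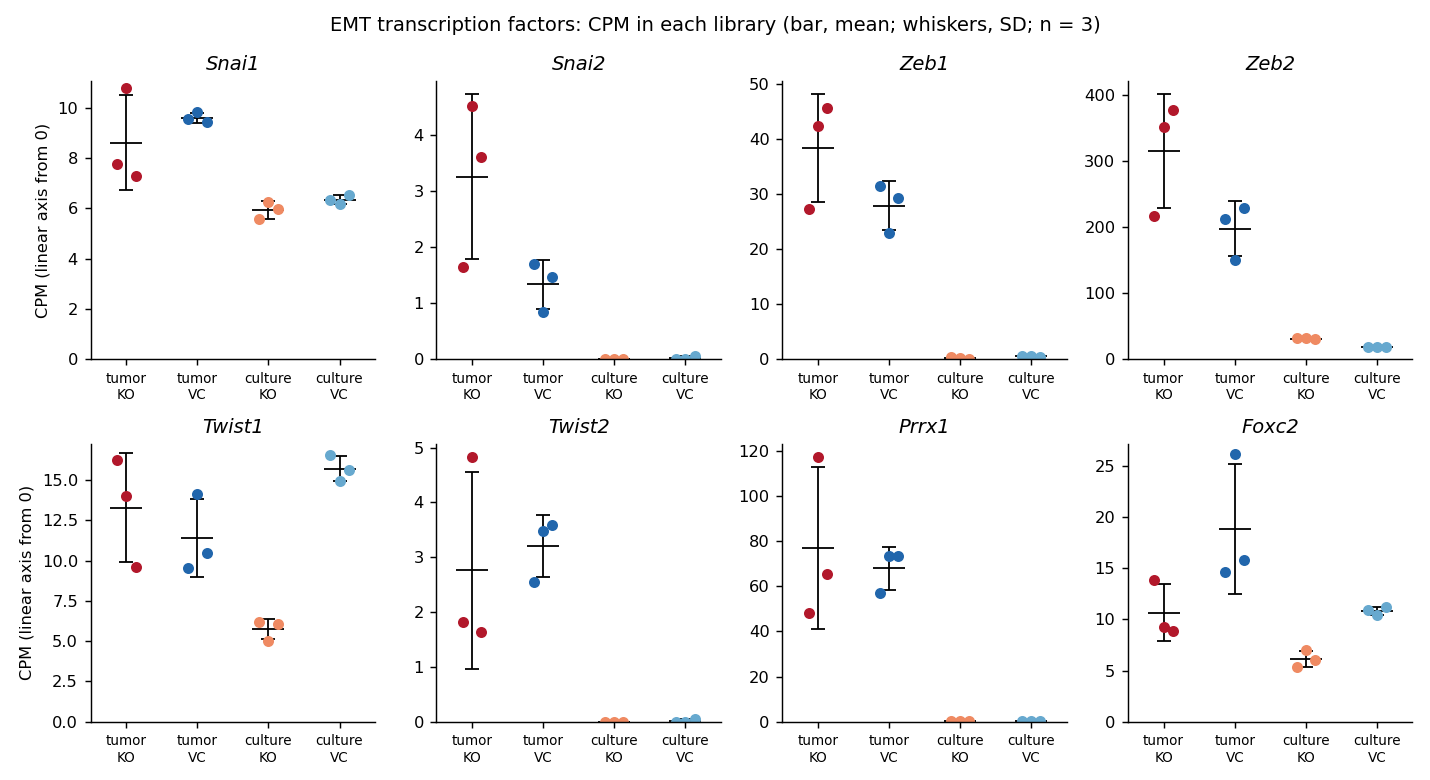
CPM of the 8 EMT transcription factors in each of the 12 libraries (points; horizontal bar, mean; whiskers, SD; n = 3 per group), on a linear axis from 0 that differs between panels. Twist1 in KO cultures (5.03 to 6.20 CPM) is below every other group, and Snai2, Zeb1, Twist2 and Prrx1 are near 0 in all 6 cultures.

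Genes that act with the EMT factors also differed between KO and VC cultures, in both directions. Their counts stand beside 47.9% of all genes tested that were called, 23% higher and 24.9% lower. Of 23 other transcription factors linked to EMT, 17 were tested, 5 were higher and 7 lower. Foxm1, a forkhead factor of the cell cycle, averaged 102 ± 2.17 CPM in KO cultures and 177 ± 6.42 CPM in VC cultures (log2 fold change -0.79 ± 0.04, edgeR, adjusted p = 1.90e-08). Klf8, a repressor of Cdh1, averaged 0.234 ± 0.17 CPM in KO cultures and 4.71 ± 0.58 CPM in VC cultures (-4.24 ± 0.30, edgeR, adjusted p = 2.74e-07). Hmga2, a chromatin protein that can induce Snai1 and Twist1, fell by 0.51 ± 0.04 on the log2 scale (edgeR, adjusted p = 5.58e-07). Of 16 factors that maintain epithelium, 12 were tested, 2 were higher and 7 lower. The lower ones included the ETS factors Ehf (-0.77 ± 0.06) and Elf3 (-0.39 ± 0.05) and the Krüppel-like factor Klf4 (-1.26 ± 0.11).

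Among 30 cofactors and turnover proteins of SNAI, ZEB and TWIST, all 30 were tested, 10 were higher and 6 lower. That share was near the 47.9% called over all genes tested, so the list as a whole did not stand out. Id2, which binds the E proteins that TWIST proteins pair with and keeps them off DNA, averaged 5.13 ± 0.45 CPM in KO cultures and 91.6 ± 8.70 CPM in VC cultures (-4.15 ± 0.09, edgeR, adjusted p = 1.45e-11). Ezh2, the histone methyltransferase of Polycomb repressive complex 2, fell by 0.83 ± 0.04 on the log2 scale, and Fbxl14, a ubiquitin ligase subunit that targets SNAI1 for degradation, fell by 0.69 ± 0.05. The related inhibitors Id1 and Id3, named here beside Id2 after their values were seen, were higher in KO cultures, at 0.68 ± 0.09 and 0.98 ± 0.09 (edgeR, adjusted p = 3.62e-05 and 1.95e-06).

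The genes on which the EMT factors act moved in both directions, beside 23% of all genes called higher and 24.9% lower. Of 30 epithelial genes repressed by SNAI and ZEB proteins, 29 were tested, 12 were higher and 15 lower, with a median log2 fold change of -0.11 beside -0.01 over all genes. Cldn3, a tight junction claudin, averaged 31.5 ± 2.37 CPM in KO cultures and 4.95 ± 0.86 CPM in VC cultures (2.68 ± 0.11, edgeR, adjusted p = 2.22e-09). Lama3, a chain of the basement membrane laminin 332, and Tjp3, a tight junction scaffold, fell by 1.29 ± 0.05 and 1.08 ± 0.05 on the log2 scale. Of 29 mesenchymal genes, 19 were tested, 9 were higher and 6 lower, with a median of 0.16. The TGF-beta target gene Ccn2 (1.99 ± 0.05) and the matrix gene Sparc (1.396 ± 0.04) were higher in KO cultures. Cdh1 and Vim, picked here as the textbook pair of EMT markers, were both lower in KO cultures, at -0.20 ± 0.05 (edgeR, adjusted p = 0.00701) and -0.19 ± 0.05 (edgeR, adjusted p = 0.0111).

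In tumors, all 8 members passed the filter and none was called between KO and VC. No gene was: 0 of 17153 tested (0%) had an adjusted p under 0.05 in edgeR, while 956 (5.57%) had an unadjusted p under 0.05 and DESeq2 called 66, none of them a member. The members below are therefore given as values. In bulk tumors, fewer cells of a type and less RNA per cell cannot be told apart.

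Zeb2 had 216, 352 and 378 CPM in KO tumors, against 212, 150 and 229 CPM in VC tumors. tumors POGZ_KO_8455 and POGZ_KO_8459 were above all VC tumors, but tumor POGZ_KO_8454 lay between tumors POGZ_VC_8447 and POGZ_VC_8451. The log2 fold change was 0.68 ± 0.26 (edgeR, unadjusted p = 0.0300, adjusted p = 0.861). Zeb1 had 27.2, 42.2 and 45.5 CPM in KO tumors, against 31.4, 22.9 and 29.2 CPM in VC tumors. It had the same 2 highest libraries and the same lowest library as Zeb2, with a log2 fold change of 0.47 ± 0.24 (edgeR, adjusted p = 0.861). Snai2 had 1.65, 4.52 and 3.61 CPM in KO tumors, against 1.70, 0.839 and 1.46 CPM in VC tumors. These rest on 20, 59 and 44 counts in KO tumors and 8, 7 and 11 counts in VC tumors, and the log2 fold change was 1.32 ± 0.48 (edgeR, unadjusted p = 0.0265, adjusted p = 0.861).

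Foxc2 had 13.9, 9.28 and 8.86 CPM in KO tumors, against 14.6, 26.1 and 15.8 CPM in VC tumors. It was the only member whose tumor groups did not overlap, its highest KO tumor having 13.9 CPM and its lowest VC tumor 14.6 CPM, while 10.4% of all genes tested had groups without overlap, 4.96% higher and 5.43% lower. The log2 fold change was -0.83 ± 0.30 (edgeR, unadjusted p = 0.0273, adjusted p = 0.861). Twist1 had 16.2, 14.0 and 9.60 CPM in KO tumors, against 9.55, 14.2 and 10.5 CPM in VC tumors, with overlap and a log2 fold change of 0.22 ± 0.27 (edgeR, adjusted p = 0.931). Prrx1 had 48.2, 117 and 65.6 CPM in KO tumors, against 57.1, 73.6 and 73.3 CPM in VC tumors. KO tumors gave both its highest and its lowest value, and without tumor POGZ_KO_8455 its log2 fold change of 0.17 ± 0.31 became -0.26. Twist2 had 1.81, 4.83 and 1.64 CPM in KO tumors, against 2.55, 3.48 and 3.59 CPM in VC tumors, and again tumor POGZ_KO_8455 was highest. Snai1 varied least, with 7.75, 10.8 and 7.30 CPM in KO tumors, against 9.55, 9.83 and 9.43 CPM in VC tumors. The log2 fold changes of Twist2 and Snai1 were -0.23 ± 0.47 and -0.16 ± 0.24 (edgeR, adjusted p = 0.95 and 0.937).

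**Figure D2:**
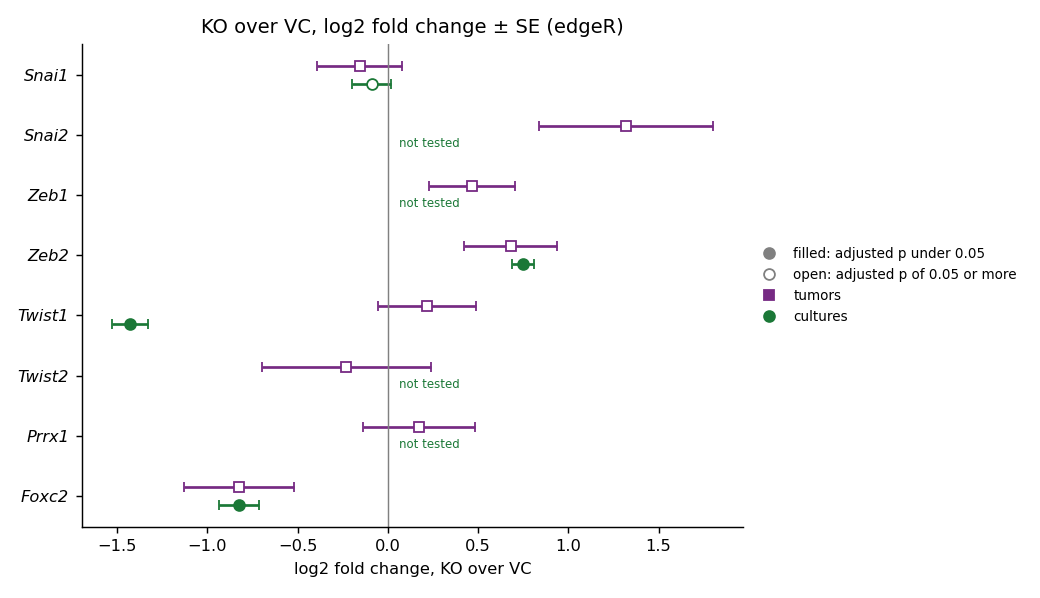
Log2 fold change of KO over VC with its SE (edgeR, n = 3 per group) for each member in tumors (squares) and in cultures (circles). Only Zeb2, Twist1 and Foxc2 in cultures have filled marks, for an adjusted p under 0.05, and Twist1 lies at -1.43 in cultures and 0.22 in tumors.

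Cell type markers varied between the tumors along with these genes. The sum of 12 fibroblast markers ran from 3562 to 6729 CPM in KO tumors and from 2420 to 3878 CPM in VC tumors, all 12 markers having counts in both groups. tumor POGZ_KO_8455 had the highest fibroblast sum (6729 CPM) and also the highest Prrx1, Twist2, Snai2 and Snai1. tumor POGZ_VC_8448 had the lowest fibroblast sum (2420 CPM), and its Snai2 was the lowest of the tumors, but its Prrx1 of 73.6 CPM was the second highest. The sum of 12 macrophage and monocyte markers ran from 1245 to 2475 CPM in KO tumors and from 816 to 1790 CPM in VC tumors, and was highest in tumor POGZ_KO_8459 and lowest in tumor POGZ_VC_8448, the libraries with the highest and the lowest Zeb2 and Zeb1. Between these, the orders differed. Zeb2 (352 CPM) and Zeb1 (42.2 CPM) of tumor POGZ_KO_8455 were exceeded only in tumor POGZ_KO_8459. The macrophage sum of tumor POGZ_KO_8455, 1245 CPM, was above only that of tumor POGZ_VC_8448. For tumor POGZ_VC_8447, the sum was 1790 CPM and Zeb2 212 CPM. The fibroblast, pericyte, endothelial and T and NK cell sums were lowest in tumor POGZ_VC_8448 too. The pericyte and the T and NK cell sums were also highest in tumor POGZ_KO_8459, so this match was not particular to macrophage markers. Endothelial sums were 324 to 405 CPM in KO tumors and 212 to 360 CPM in VC tumors, and those of 8 carcinoma epithelium markers 1707 to 1987 CPM in KO tumors and 1863 to 2263 CPM in VC tumors. Pericyte and smooth muscle sums were 145 to 167 CPM in KO tumors and 91.4 to 159 CPM in VC tumors, T and NK cell sums 53.3 to 166 CPM in KO tumors and 46.9 to 73.4 CPM in VC tumors, and neutrophil sums 138 to 538 CPM in KO tumors and 70.03 to 483 CPM in VC tumors. Adipocyte markers, at 19.5 to 128 CPM in KO tumors and 6.38 to 49.6 CPM in VC tumors, and skeletal muscle markers, at 8.33 to 41.6 CPM in KO tumors and 22.1 to 66.4 CPM in VC tumors, also varied between tumors. The part of these cell types in the tumor values was not tested.

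**Figure D3:**
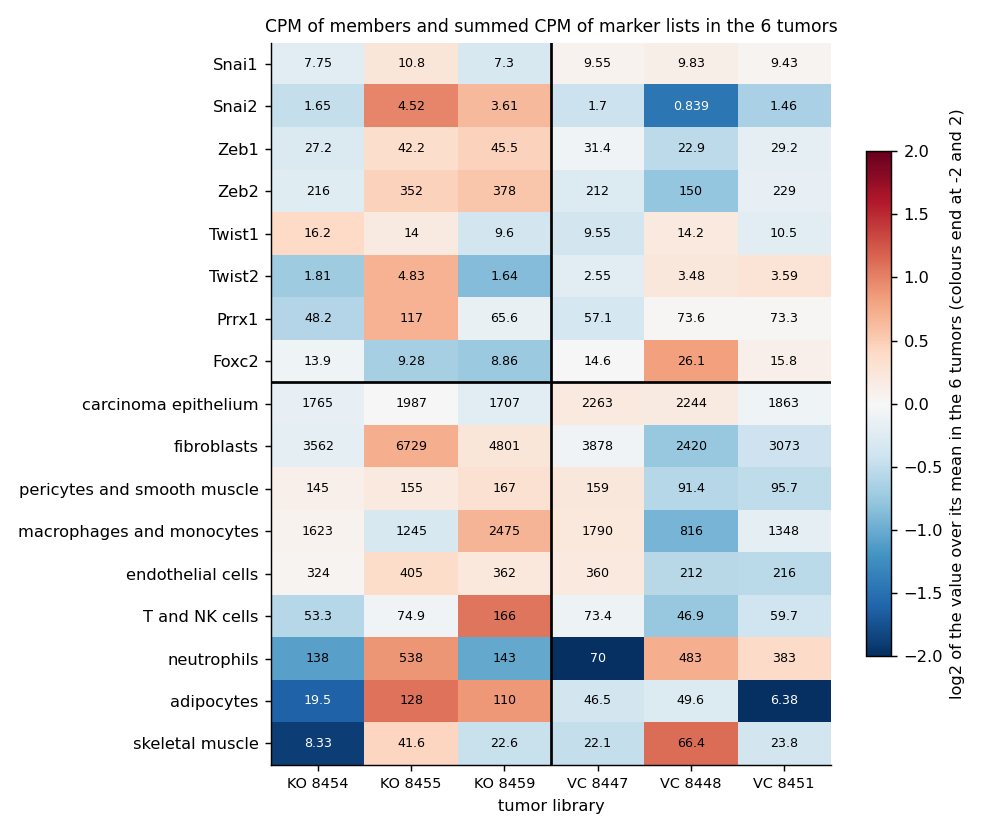
CPM of the 8 members (upper rows) and summed CPM of 9 marker lists (lower rows) in the 6 tumors, written in each cell; colours give the log2 of the value over its mean in the 6 tumors. Zeb1 and Zeb2 are lowest in tumor POGZ_VC_8448, where the macrophage sum is 816 CPM, and Prrx1 is highest in tumor POGZ_KO_8455, where the fibroblast sum is 6729 CPM. The orders otherwise differ: tumor POGZ_KO_8455 has Zeb2 at 352 CPM and a macrophage sum of 1245 CPM.

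Of the pathway lists, no gene was called between KO and VC tumors in any of the 5. At an unadjusted p under 0.05 stood 1 of 20 other factors linked to EMT, 2 of 12 factors that maintain epithelium, 0 of 30 cofactors, 6 of 29 epithelial genes and 3 of 28 mesenchymal genes, beside 5.57% of all genes. The median log2 fold changes were -0.18 for the epithelial and 0.30 for the mesenchymal list, beside 0.02 over all genes. For the 12 fibroblast markers the median was 0.59, and Col1a1, Col3a1 and Pdgfra stand in both this list and the mesenchymal one. Other cell type lists had medians of 0.72 (pericytes and smooth muscle), 0.33 (macrophages and monocytes), 0.48 (endothelial cells) and 0.78 (T and NK cells). Adipocyte markers had 1.37, neutrophil markers -0.32, skeletal muscle markers -0.55 and carcinoma epithelium markers -0.10. Krt8, Krt18, Epcam, Cdh1, Cldn7 and Esrp1 stand in both the carcinoma epithelium list and that of epithelial genes, so these medians are not separate.

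Only Snai1, Zeb2, Twist1 and Foxc2 had passed the filter in cultures, and these 4 are the members for which a call between tumors and cultures can be read. All 4 were called higher in KO tumors than in KO cultures, where 35.3% of 17311 genes were called higher and 26% lower, 61.3% in all. In VC tumors against VC cultures, Snai1, Zeb2 and Foxc2 were called higher and Twist1 was not called, where 35.7% of 17123 genes were called higher and 29.5% lower, 65.2% in all. Snai2, Zeb1, Twist2 and Prrx1 entered these tests only through the tumors, where they are high, so they had to differ, and their values are given as a description. In each of the 2 comparisons, 71.7% of all genes had groups without overlap, 38% higher and 33.7% lower in tumors. Tumor and culture libraries came in separate tables and differ in tissue, host cells and handling, which cannot be told apart here.

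The 4 members near 0 in culture differed most. Prrx1 averaged 77.0 ± 35.9 CPM in KO tumors and 0.172 ± 0.033 CPM in KO cultures, and 68.0 ± 9.47 CPM in VC tumors and 0.147 ± 0.068 CPM in VC cultures. Its log2 fold changes were 8.82 ± 0.50 in the KO comparison and 8.78 ± 0.26 in the VC comparison. Zeb1 averaged 38.3 ± 9.75 CPM in KO tumors and 0.172 ± 0.10 CPM in KO cultures, and 27.8 ± 4.42 CPM in VC tumors and 0.474 ± 0.084 CPM in VC cultures, with log2 fold changes of 7.81 ± 0.39 and 5.84 ± 0.23. Snai2 had 123 counts over the 3 KO tumors and none over the KO cultures, at least 19.0-fold higher against a floor of 3 counts per library, and Twist2 had 105 counts and none, at least 16.1-fold higher. In VC libraries, Snai2 had 26 counts in tumors and 1 in cultures, a ratio of 69.3 with a 95% counting interval of 11.4 to 2842, and Twist2 had 68 counts and 1, a ratio of 181 with an interval of 31.5 to 7266.

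Zeb2 was expressed in culture and yet was 10.5 times as high in KO tumors as in KO cultures and 10.6 times as high in VC tumors as in VC cultures, with log2 fold changes of 3.39 ± 0.22 in the KO comparison and 3.41 ± 0.17 in the VC comparison (edgeR, adjusted p = 6.83e-05 and 3.10e-06). Foxc2 was higher by 0.85 ± 0.23 in KO tumors over KO cultures and by 0.81 ± 0.22 in VC tumors over VC cultures (edgeR, adjusted p = 0.0166 and 0.0127). Snai1 was higher by 0.59 ± 0.19 and 0.60 ± 0.15 (edgeR, adjusted p = 0.0357 and 0.00879), the smallest of the called differences. In the KO comparison, the Snai1 call was lost without tumor POGZ_KO_8455 or without any 1 of the 3 KO cultures (adjusted p of 0.0968 to 0.127), with no filter (0.111) or with libraries thinned to the smallest total (0.0641), and the Foxc2 call without KO culture 1 or 3 (adjusted p = 0.0758 and 0.0695). The Snai1 call in the VC comparison was lost with no filter (adjusted p = 0.0614). Twist1 differed in direction between the KO and VC comparisons. In KO tumors it was 1.25 ± 0.23 higher on the log2 scale than in KO cultures (edgeR, adjusted p = 0.00323), whereas in VC tumors all 3 libraries lay below all 3 VC cultures, with a log2 fold change of -0.45 ± 0.17 that was not called (edgeR, adjusted p = 0.0510). It was called lower under 5 alternatives, among them without tumor POGZ_VC_8448, at -0.65 (edgeR, adjusted p = 0.00362).

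**Figure D4:**
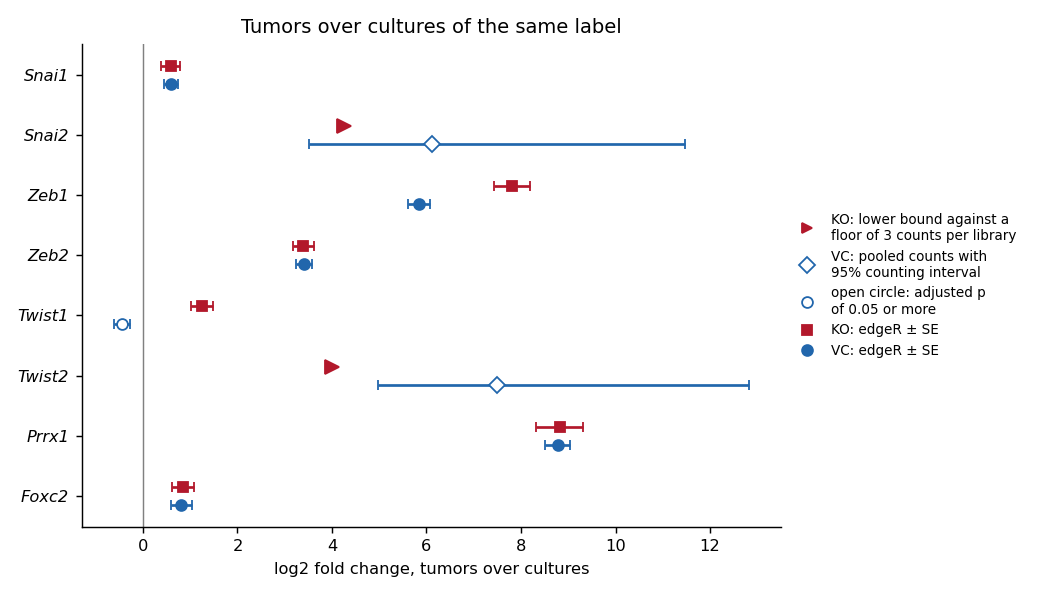
Log2 fold change of tumors over cultures for KO (red) and VC (blue) libraries, with SE (edgeR) or, for Snai2 and Twist2, the lower bound against a floor of 3 counts per library (KO) and the pooled ratio with its 95% counting interval (VC). Twist1 lies at 1.25 for KO and -0.45 for VC, and the other members lie above 0 for both.

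The host cells of the tumors were visible in the same comparison. The fibroblast sum of 3562 to 6729 CPM in KO tumors and 2420 to 3878 CPM in VC tumors stood against 19.8 to 20.8 CPM in KO cultures and 27.7 to 31.1 CPM in VC cultures, with Dcn, Lum, Dpt and Thy1 at 0 in all 6 cultures. The macrophage sum was 44.2 to 47.8 CPM in KO cultures and 54.1 to 57.7 CPM in VC cultures, with Adgre1 and Ms4a7 at 0 in all 6. Some listed markers were present in cultures, so they are not specific to host cells. Csf1r averaged 14.0 CPM in KO and 24.0 CPM in VC cultures, Cd68 23.1 and 23.5 CPM, and Cd14 8.75 and 8.27 CPM. Of the fibroblast markers, Pdgfra averaged 15.6 CPM in KO and 26.5 CPM in VC cultures. The carcinoma epithelium sum was lower in tumors, at 1707 to 1987 CPM in KO and 1863 to 2263 CPM in VC, than in cultures, at 3446 to 3533 CPM in KO and 3081 to 3428 CPM in VC. How much of each member's tumor RNA came from host cells was not tested.

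Genes of the pathway lists differed between tumors and cultures as well. Over all genes, 35.3% were called higher and 26% lower for KO, and 35.7% higher and 29.5% lower for VC. Of the mesenchymal genes, 24 of 28 tested were higher and 2 lower in KO tumors than in KO cultures, and 25 of 28 were higher and 1 lower in VC tumors than in VC cultures. Since 19 of the 29 listed genes had passed the filter in cultures, some were tested here only through the tumors. Col1a1, Col3a1 and Pdgfra stand in both this list and that of fibroblasts. Col1a1, a chain of type I collagen, averaged 1742 ± 483 CPM in KO tumors and 2.92 ± 0.14 CPM in KO cultures, and 1170 ± 263 CPM in VC tumors and 1.49 ± 0.033 CPM in VC cultures. Vim, encoding vimentin, was higher by 5.24 ± 0.15 in KO tumors than in KO cultures. Of the epithelial genes, 4 of 28 were higher and 17 lower in KO tumors, and 5 of 29 were higher and 13 lower in VC tumors. Mal2, a protein of apical transport, had log2 fold changes of -4.23 ± 0.18 in KO tumors over KO cultures and -2.81 ± 0.17 in VC tumors over VC cultures. Epcam, shown above for its E-boxes and named here for that reason, was instead higher in tumors, by 0.80 ± 0.08 for KO and 0.76 ± 0.16 for VC.

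Of the other factors linked to EMT, 7 of 19 were higher and 4 lower in KO tumors than in KO cultures, and 9 of 20 were higher and 4 lower in VC tumors than in VC cultures. Both were near the shares of all genes called, 61.3% for KO and 65.2% for VC. Since 17 of the 23 listed factors had passed the filter in cultures, some of those higher were tested here only through the tumors. Runx1, a factor of blood cells and mammary epithelium, was higher by 2.20 ± 0.22 for KO and 2.495 ± 0.12 for VC. Of the factors that maintain epithelium, 3 of 13 were higher and 5 lower for KO, and 3 of 12 were higher and 6 lower for VC. In cultures, 12 of the 16 listed had passed the filter, and Elf5, among those higher for KO, was tested only through the tumors. Klf4 was higher by 2.39 ± 0.16 in KO tumors, and Ovol1, a repressor of Zeb1, was lower in VC tumors than in VC cultures at -2.02 ± 0.27. Of the cofactors, 5 of 29 were higher and 9 lower for KO, and 5 of 30 were higher and 10 lower for VC, below the shares of all genes. Id2 was higher by 2.88 ± 0.25 in KO tumors than in KO cultures but lower in VC tumors than in VC cultures, at -1.30 ± 0.19 (edgeR, adjusted p = 0.000178 and 0.000455).

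Whether the KO difference itself changed between tumors and cultures was tested as an interaction over all 12 libraries, which called 2.05% of 18419 genes, 1.13% higher and 0.912% lower. Of the 8 members, Twist1 was called. Its KO-over-VC log2 fold change was 1.66 ± 0.29 higher in tumors than in cultures (edgeR, adjusted p = 0.0145), since it was lower in all KO cultures and overlapped in tumors. The call was lost without KO culture 2, KO culture 3 or VC culture 1 (edgeR, adjusted p = 0.0577, 0.0502 and 0.0533), while the estimate stayed between 1.47 and 1.84 over 18 fits. Zeb1 had a larger estimate of 1.91 ± 0.52 that was not called (edgeR, adjusted p = 0.101) and rests on 35 culture counts. It entered this test only through the tumors, so its estimate is given as a description. Of 18 alternative fits, 1 called it, the fit without tumor POGZ_KO_8454, the KO tumor with the lowest Zeb1 (2.10, edgeR, adjusted p = 0.0178). Zeb2, Foxc2 and Snai1 had estimates of -0.07 ± 0.28, -0.0025 ± 0.40 and -0.06 ± 0.23, so their KO differences in tumors were not shown to differ from those in cultures. Prrx1 (-0.02 ± 0.63), Snai2 and Twist2 had no usable culture values for this comparison.

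Among the pathway lists, the interaction called few genes. It called Klf8 (4.65 ± 0.66) among 21 other factors linked to EMT, Klf4 (1.69 ± 0.28) among 13 factors that maintain epithelium and Id2 (4.13 ± 0.33) among 30 cofactors. Each of these 3 was, like Twist1, called lower in KO than in VC cultures. No gene at all was called between KO and VC tumors, where Id2 averaged 36.6 ± 11.1 CPM in KO and 37.0 ± 9.46 CPM in VC. Of 30 epithelial genes, 2 were called, both lower, Cldn3 (-2.34 ± 0.34) and Mal2 (-1.46 ± 0.24). Of 28 mesenchymal genes, 2 were called higher and 3 lower, among them Pdgfra (1.76 ± 0.18), Fn1 (-1.73 ± 0.29) and Postn (-1.99 ± 0.33).

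Levels were compared between members as CPM per kilobase of merged exons. In KO tumors Zeb2 led with 15.8 (range 10.8 to 19.0), followed by Twist1 at 8.16 (5.90 to 9.98), Prrx1 at 6.96, Snai1 at 5.32, Foxc2 at 3.91 and Zeb1 at 3.73, with Snai2 at 1.61 and Twist2 at 0.870 last. Neighbours from Twist1 to Zeb1 overlapped in range, and Zeb2 did not overlap with any. In VC tumors the order was Zeb2 at 9.89 (7.52 to 11.5), Twist1 at 7.002 (5.87 to 8.69), Foxc2 at 6.92, Prrx1 at 6.15, Snai1 at 5.93, Zeb1 at 2.71, Twist2 at 1.01 and Snai2 at 0.660. There, Zeb2 and Twist1 overlapped, while Zeb1 lay below Snai1 without overlap.

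Cultures had another order on this per-kilobase scale. In KO cultures Snai1 at 3.66 (3.43 to 3.85) and Twist1 at 3.53 (3.09 to 3.81) overlapped at the top, followed by Foxc2 at 2.25 and Zeb2 at 1.56 without overlap. In VC cultures Twist1 led with 9.65 (9.19 to 10.2), Foxc2 at 3.98 and Snai1 at 3.91 overlapped, and Zeb2 stood at 0.929. Zeb1 and Prrx1 were under 0.05 in both culture groups. Merged exons make genes with many long isoforms look low: with the length of the principal transcript instead, Zeb2 had 34.6 in KO tumors and 21.6 in VC tumors, Prrx1 came second in both tumor groups (15.6 in KO and 13.7 in VC), and Zeb2 passed Foxc2 in KO cultures.

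The genes whose profile over the 12 libraries was most like that of each member were found by the root mean square (RMS) difference of centred log2(CPM + 0.5) values among 16341 genes. Because tumors and cultures make the largest contrast, likeness mostly reflects that contrast. Nearest to Prrx1 were Aebp1, Pdgfrb and Colec12 (RMS difference 0.174 to 0.248), and nearest to Zeb1 were Itgb3, Pla2g7 and Cd200 (0.158 to 0.242). Nearest to Zeb2 were Tnfaip8l2, Phactr2 and Slco2b1 (0.199 to 0.242). The profile of Twist1 was matched less closely, by Gm12223, Myo1d and Csf2 (0.235 to 0.288), and that of Foxc2 by Prkg2, 2810408A11Rik and Ankrd23 (0.179 to 0.226). Snai1, which varied little, was nearest to Adcy6, RP24-530J21.3 and Parp3 (0.0993 to 0.105). Snai2 was nearest to Gpx7, Gm20528 and Col5a1 (0.120 to 0.197), and Twist2 to Gpc3, Bmpr1b and Usp13 (0.233 to 0.256).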

How the data were processed

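The authors deposited whole-number read counts per gene in 1 table for the 6 cultures and 1 for the 6 tumors, with 39017 Ensembl IDs each. Reads were trimmed, aligned to a genome and counted before deposit: the submitters' processing notes name mm10, featureCounts 1.4.4, STAR 2.3.0e and Trimmomatic 0.32, without settings. Strand setting and annotation release are not given in the sources used here. Per the labels' protocols, column-purified total RNA went into ribosomal-RNA-depleted KAPA RNA Hyper Prep libraries.

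Counts were tested in R 4.3.3 with edgeR 4.0.16: filterByExpr, TMM scaling, quasi-likelihood test and Benjamini-Hochberg adjustment over all genes tested, called at an adjusted p under 0.05. Each comparison of 2 groups used its own 6 libraries, and the interaction used all 12. Each SE is the absolute log2 fold change divided by the root of its F value. CPM used the library total. Intervals and floors (3 counts per library) cover counting error only, and intervals have a level of 95%. The test was checked on simulated counts. Positions came from GENCODE M21 (37607 IDs found), and Patj, Ccn2 and Adgre1 were found under older symbols by ID.

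The members, the 5 pathway lists, the 9 cell type lists and the alternatives were chosen with earlier results of these data known. All 8 members are named, with up to 3 called genes of each pathway list with the smallest p, and the 3 genes of nearest profile. Of the genes this rule named, 1 is not reported here. Alternatives were upper-quartile and RLE scaling, a fit with no filter, a stricter filter (CPM of at least 1 in 3 libraries), DESeq2 1.42.0, limma-voom (limma 3.58.1), 1 fit of all 12 libraries, chromosome medians taken out, thinning to the smallest total, a block for culture numbers, and leaving out libraries. Python 3.11.15 with pandas 2.3.3, scipy 1.17.1 and matplotlib 3.10.9 did the rest. Nothing in the labels ties cultures of the same number together, so they were not treated as pairs.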

Additional observations from a re-analysis of the deposited data

Results flagged for a closer look

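Twist1 is listed because its KO effect differed between tumors and cultures. The KO-over-VC log2 fold change was 0.22 ± 0.27 in tumors and -1.43 ± 0.10 in cultures (SE, n = 3 per group), and the interaction was 1.66 (edgeR, adjusted p = 0.0145). In cultures the difference was seen in 3 of 3 KO libraries, all below the VC libraries, while the tumors overlapped.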

How the results depend on the processing

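The number of members called stayed within 1.5 times its value in all 4 comparisons of 2 groups under the alternatives run. In the interaction it ran from 0 to 2, against 1, when 1 library was left out. Over all genes, the cultures had 1501 calls with all 12 libraries in 1 fit, against 7523, and the tumors had 66 with DESeq2 and 64 with all 12 libraries, against 0. The interaction had 953 calls with DESeq2 and 147 to 1588 with 1 library left out, against 377.

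Of the members' values, 23 changed sign, all of them small and not called, and the cause was not tested. In tumors, Twist2 ran from -0.90 to 0.024 and Prrx1 from -0.26 to 0.41 with 1 library left out, and Twist2 was 0.13 without tumors POGZ_VC_8451 and POGZ_KO_8459 together. In the interaction, RLE scaling gave 0.012 for Prrx1 and 0.0080 for Foxc2, and DESeq2 gave 0.0055 for Foxc2. With 1 library left out, the interaction ran from -0.23 to 0.038 for Snai1, -0.24 to 0.13 for Zeb2, -0.24 to 1.75 for Twist2, -0.43 to 0.21 for Prrx1 and -0.25 to 0.31 for Foxc2.

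The replicate block called 3 members and 7237 genes in cultures, against 3 and 7523. Cultures with the same number had correlations of deviations of -0.09, -0.01 and 0.04, so the numbers gave no sign of pairing. Depth limits Snai2, Zeb1, Twist2 and Prrx1 in cultures.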
